A study of Mus musculus with 2 samples.

Results

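The genes described here are 8 killer lectin-like receptor genes counted in cells from mouse 4T1 breast tumours: 5 Ly49 genes of the natural killer (NK) type (Klra3, Klra5, Klra6, Klra7 and Klra21), the myeloid Ly49 gene Klra17, the NKG2A gene Klrc1, and Klrg1. They were taken by name, as 8 of the 396 genes counted under every sample tag. The 4T1 mammary carcinoma cells had been placed in a mammary fat pad of female BALB/c mice aged 8 weeks, which were treated from day 7, when tumours measured about 70 mm3. Each arm had 6 mice, and the tumours of 2 mice per arm were dissociated, recombined at 1 EPCAM-positive cell to 4 EPCAM-negative cells, marked with sample tags and loaded on a BD Rhapsody cartridge for a targeted immune gene panel. The anti-PD-1 pool (tags 3 and 4) held tumours given anti-PD-1 antibody alone and tumours given it with anti-Siglec-E antibody. The no-anti-PD-1 pool (tags 1 and 2) held tumours given isotype antibody and tumours given anti-Siglec-E alone. The labels tie no tag to an arm, so tags are named by number only, and the 2 tags of a pool are not replicates. Each pool is 1 sample, so no difference between pools could be tested, and cartridge and anti-PD-1 cannot be told apart.

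Ly49 receptors are lectin-like surface proteins encoded in the NK gene complex. Most of them bind MHC class I and restrain killing, and each NK cell uses only some members of the family, so that NK cells differ in the receptors they carry. NKG2A pairs with CD94 and binds the non-classical MHC molecule Qa-1. It is also made by activated CD8 T cells in tumours. KLRG1 binds cadherins and marks differentiated effector cells and a subset of regulatory T cells, while Ly49Q, the product of Klra17, is known from neutrophils and plasmacytoid dendritic cells.

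The Ly49 genes resemble each other closely, which bears on every count given below. The 57 coding bases that end Klra3 before its stop codon are shown with the best-matching coding bases of the other genes, 5′ to 3′ on the coding strand, with each base that differs from Klra3 in capitals. They are from GENCODE M21 transcripts (GRCm38, C57BL/6J), lie on the minus strand and fall in 1 exon of each gene.
Klra3: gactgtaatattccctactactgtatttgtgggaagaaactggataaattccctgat
Klra6: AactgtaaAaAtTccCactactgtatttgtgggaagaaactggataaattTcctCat
Klra5: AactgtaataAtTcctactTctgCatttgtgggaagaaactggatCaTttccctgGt
Klra7: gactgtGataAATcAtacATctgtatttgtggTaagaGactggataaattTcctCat
Klra1: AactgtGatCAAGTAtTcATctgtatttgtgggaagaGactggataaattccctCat
Klra17: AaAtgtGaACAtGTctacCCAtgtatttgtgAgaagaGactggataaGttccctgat
These stretches lie at chr6:130323607-130323663 (Klra3), chr6:130013349-130013405 (Klra6), chr6:129899315-129899371 (Klra5), chr6:130218903-130218959 (Klra7), chr6:130364223-130364279 (Klra1) and chr6:129831468-129831524 (Klra17). Klra6 differed from Klra3 at 7 of the 57 bases, Klra5 at 8, Klra7 at 11, Klra1 at 13 and Klra17 at 14. Over the whole coding sequence Klra3 was 91.4% identical to Klra6, 89.1% to Klra5, 81.2% to Klra7 and 79.3% to Klra17, against 60.2% to Klrc1. The longest run of bases shared with Klra3 was 42 in Klra6 and 52 in Klra5, but 29 in Klra7 and 20 in Klra17. The 6 Klra genes with an annotation lie within chr6:129831154-130386874. Klrc1 lies beside them at chr6:129666015-129678973 and Klrg1 farther off at chr6:122270596-122282882. No Klra21 sequence was used here. BALB/c mice carry a different and smaller set of Ly49 genes than C57BL/6, so a count under one of these names may stand for a close relative in BALB/c.

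Klra3, Klra6 and Klra21 were found together: of 158 cells with a molecule of any of them, 95 had all 3, 36 had 2 and 27 had 1. Across those cells the molecule counts had a Pearson r of 0.955 between Klra6 and Klra21, 0.885 between Klra3 and Klra6 and 0.876 between Klra3 and Klra21, as a description of cells that share libraries and depth. Their proportions were also similar from tag to tag, with Klra21 making up 39.8% of the molecules of the 3 in tag 3 and 43.5% in tag 4, and 42.6% in tag 1 and 39.7% in tag 2. Klra5 was not bound to them in this way, although its coding sequence was 91.9% identical to Klra6. Of 8 NK cells with Klra5, 3 had Klra3, against 35 of all 100 NK cells. In CD8 T cells Klra5 was more frequent beside them, in 7 of 23 Klra6 cells and 6 of 21 Klra3 cells, against 41 of all 290. Klra3, Klra6 and Klra21 are also given as 1 sum, the Klra3/6/21 sum, and their separate values are uncertain. The Ly49 sum is that sum plus Klra5 and Klra7.

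The files held 12018 cells, with 6620 in tag 3 and the fewest in tag 4, and 2430 in tag 1 and 1515 in tag 2, and a median of 1262 to 1463 molecules per cell over the genes found in all tags. A tag held 2993684 to 12416134 molecules of these genes. Cells were gated on lineage markers that included no Klr gene. The gates gave 100 NK, 290 CD8 T, 295 CD4 T, 89 B, 3227 neutrophil, 248 macrophage and 95 dendritic cells, and 967 Lgals1-high cells, while 42 cells met more than 1 gate and 6665 met none. NK cells numbered 68 in tag 3 and 9 in tag 4, against 11 in tag 1 and 12 in tag 2, so NK values outside tag 3 rest on few cells. In the NK gate Cd8a and Cd8b1 were at 0 and Cd79 and Ms4a1 summed to at most 16.3 CPM. CPM are counts per 1000000 molecules, over the genes that all tags share. The gate allowed at most 1 molecule each of Cd3, Cd8, Cd4 and Cd79 per cell, so these low values are largely set by it. The T-cell markers Cd3d, Cd3e, Cd3g and Trdc summed to 634 to 1877 CPM and neutrophil markers to 10939 to 18086 CPM by tag. Macrophage markers summed to 326 CPM in tag 3 and 277 CPM in tag 4, and to 289 CPM in tag 1 and 5162 CPM in tag 2, where the NK markers were lowest, at 72952 CPM against 111350 to 153646 CPM in the others. Of the cell indices, 37 occurred in both cartridges and 0 in both tags of a cartridge. Doublets were not called.

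Each gene had its own place among the cell classes. Of 4623 Klrc1 molecules, 65.4% lay in CD8 T cells, 6.68% in NK cells and 4.61% in CD4 T cells. Of 1186 Klrg1 molecules, 44.9% lay in CD4 T cells, 5.23% in NK cells and 3.63% in CD8 T cells. Klra7 was the most NK-borne of these genes, with 31.1% of 488 molecules in NK cells and 8.81% in CD8 T cells, whereas Klra5 had 45.2% of 584 molecules in CD8 T cells and 6.68% in NK cells. The Klra3/6/21 sum was split between both, with 27.3% in NK cells and 22.0% in CD8 T cells. Klra17 stood apart: 47.4% of its 9208 molecules lay in neutrophils and 1 molecule in NK cells. Cells outside the gates held 18.2% of Klrc1, 23.6% of Klrg1, 20.9% of Klra7, 44.3% of Klra5 and 50.2% of Klra17, and of that last share 71.0% lay in cells with at least 15% of their molecules from S100a8 and S100a9, the calprotectin genes of neutrophils. Cells that met 2 gates held another 37.9% of Klra7 and 21.9% of Klrg1.

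**Figure D1:**
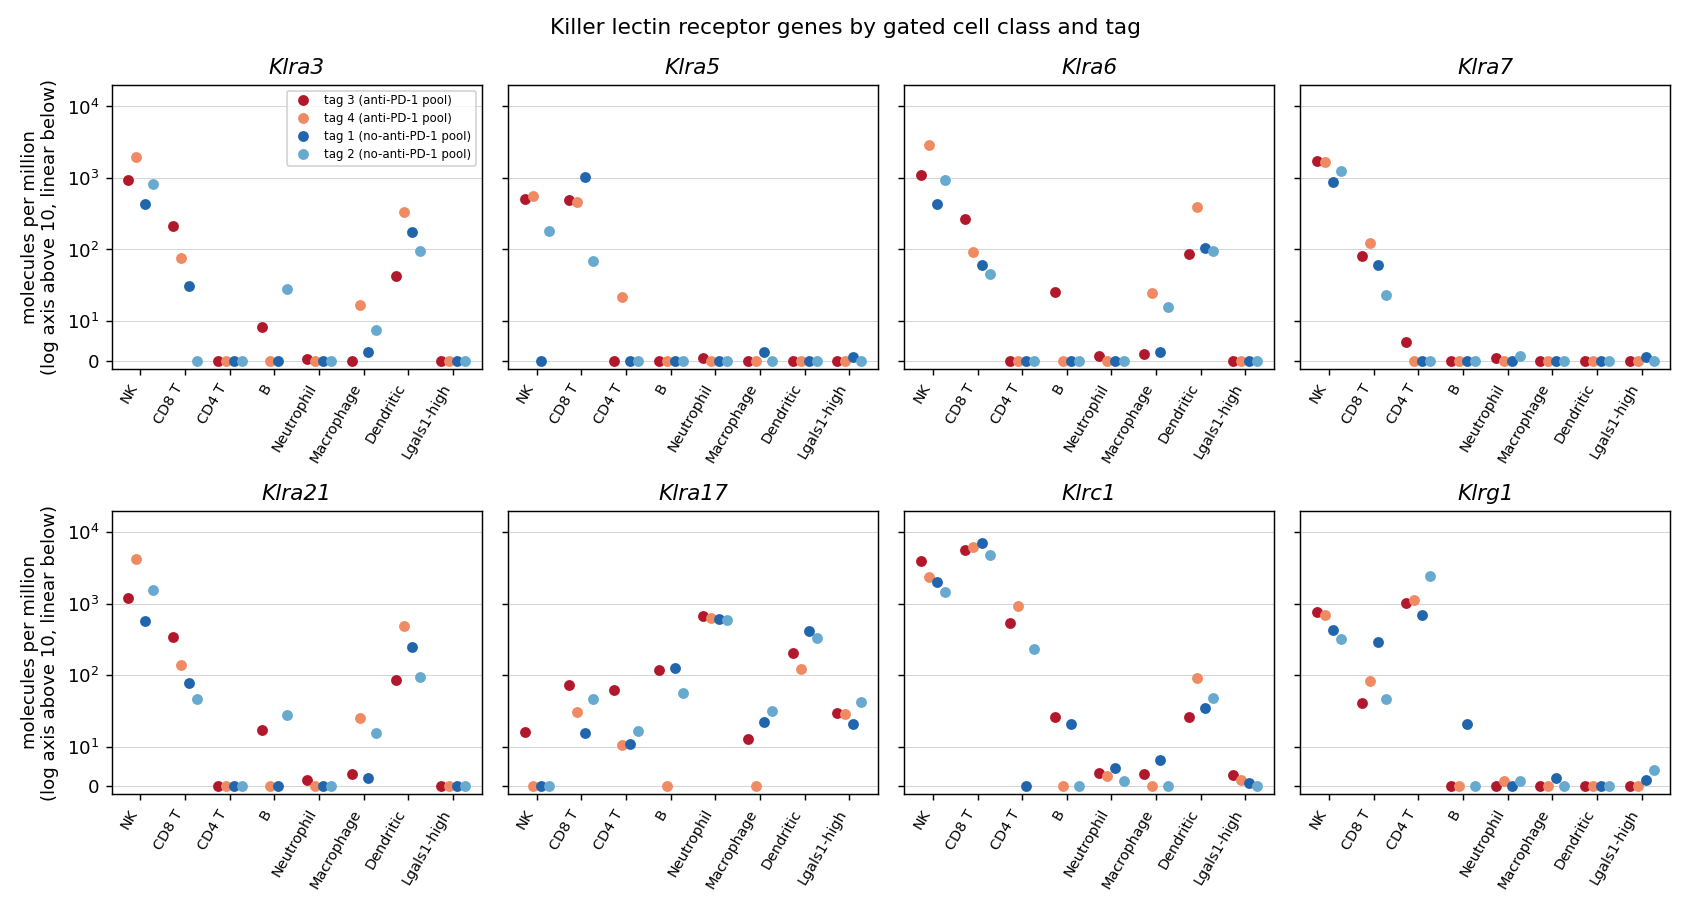
Level of each of the 8 genes in each gated cell class, in CPM on an axis that is logarithmic above 10 and linear below, with 1 point per tag (tags 3 and 4 of the anti-PD-1 pool left of tags 1 and 2 of the no-anti-PD-1 pool). Klra17 is at 591 to 683 CPM in neutrophils, Klrc1 at 4877 to 7036 CPM in CD8 T cells and Klrg1 at 706 to 2438 CPM in CD4 T cells.

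In NK cells the Ly49 genes were spread over the population. Over all tags, 60 of 100 NK cells had a molecule of the Ly49 sum, with 43 for the Klra3/6/21 sum, 31 for Klra7, the gene of the inhibitory receptor Ly49G, and 8 for Klra5, the gene of Ly49E. Klra1, the Ly49A gene and no member of the set, was found in 19. With Klra3/6/21, Klra7, Klra1 and Klra5 counted as 4 kinds of Ly49, 37 NK cells had 0 kinds, 35 had 1, 18 had 2, 10 had 3 and 0 had 4. The last count follows from Klra5 and Klra1, which were in 8 and 19 cells and together in 0, so nothing more is read from it. Depth sets a lower limit on such counts, since these cells had a median of only 735 molecules each.

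Klrc1 was found beside Ly49 as well as without it. It was detected in 32 of 63 NK cells with a kind of Ly49 (50.8%) and in 23 of 37 without one (62.2%), at median depths of 710 and 768 molecules, and 14 of the 100 cells had neither. By gene, Klrc1 was in 6 of 8 Klra5 cells, 15 of 23 Klrg1 cells and 15 of 31 Klra7 cells, but in 5 of 19 Klra1 cells. Klra7 and Klra3 were found together in 18 cells and Klra7 and Klra1 in 12.

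**Figure D2:**
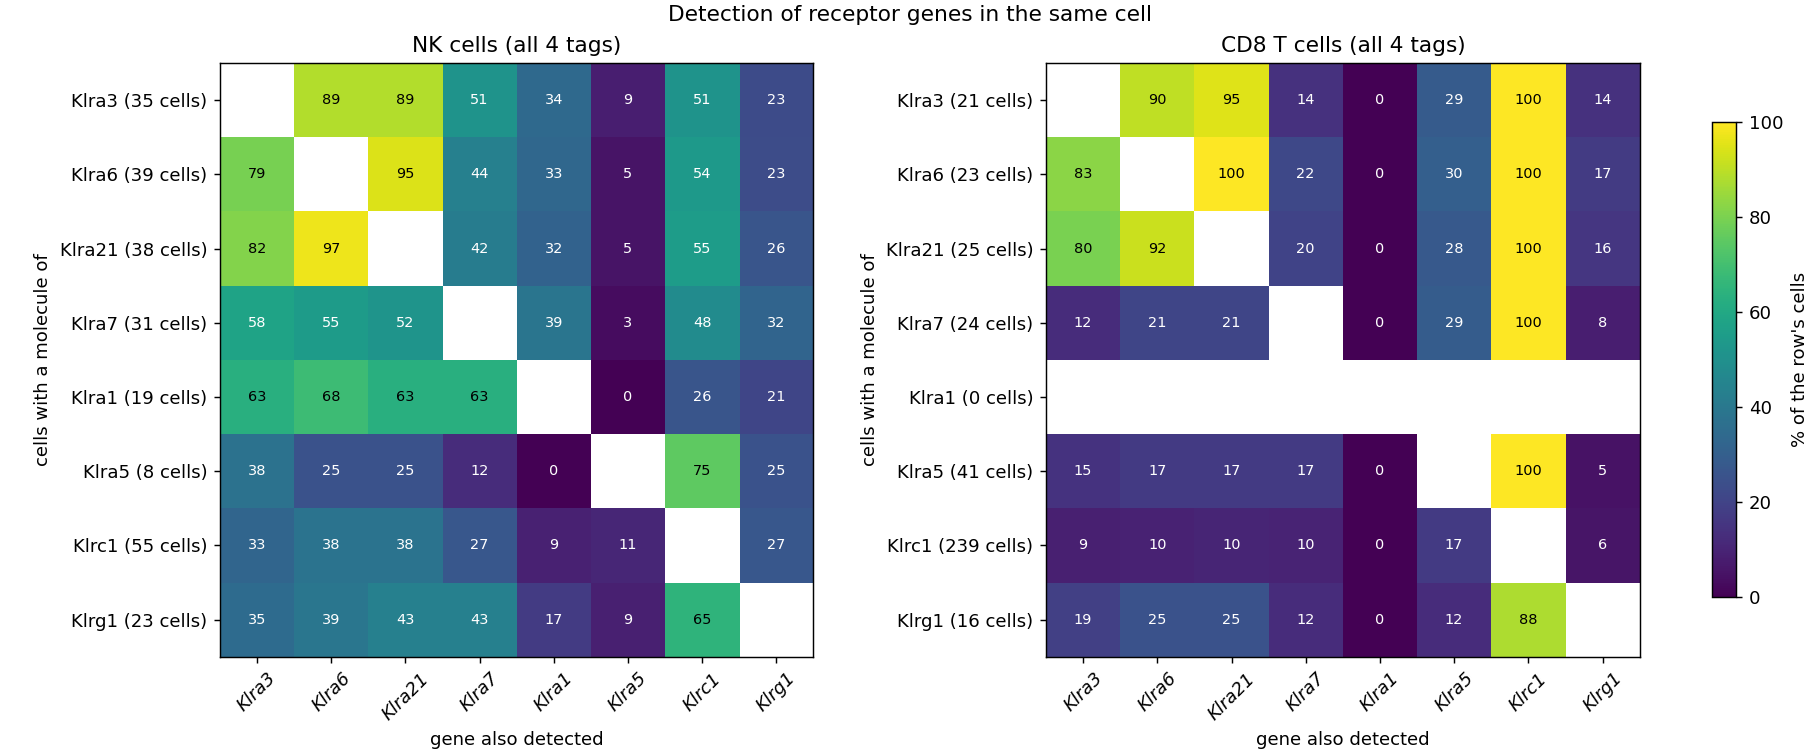
Share of NK cells (left, 100 cells) and CD8 T cells (right, 290 cells) with a molecule of the row gene that also had a molecule of the column gene, in percent. Klra3, Klra6 and Klra21 form a bright block in both classes, and in CD8 T cells every row of a Ly49 member reaches 100% in the Klrc1 column.

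By tag, the Ly49 sum stood at 5454 CPM (exact Poisson 95% interval 4885 to 6070) in tag 3 and 11216 CPM (8907 to 13940) in tag 4, and at 2310.5 CPM (1321 to 3752) in tag 1 and 4755 CPM (3889 to 5756) in tag 2. Both anti-PD-1 tags were above both others, but tags 3 and 2 were only 1.15-fold apart. A gene was called higher or lower in the anti-PD-1 pool only where both its tags lay beyond both others, with a gap of at least 1.5-fold between the closest of them, among genes with at least 30 molecules in the class. The log2 ratio of the pools, each the mean of its 2 tags, was 1.24 (counting interval 0.87 to 1.61) with no call. These intervals, here and below, cover counting error only. Tag 1 was counted against a reference with other target names and fewer genes. Over all its cells it held 14, 13, 20 and 11 molecules of Klra3, Klra6, Klra21 and Klra7, against 60, 57, 77 and 46 in tag 2. For Klra5 it held 75 against 39. The part of the reference in the Ly49 values of tag 1, in NK and CD8 T cells, was not tested.

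The single Ly49 genes had the same order in most cases. Klra7 had 1726 CPM in tag 3 and 1662 CPM in tag 4, and 866 CPM in tag 1 and 1268 CPM in tag 2. The Klra3/6/21 sum had 3223 CPM in tag 3 and 9000.3 CPM in tag 4, against 1444 CPM in tag 1 and 3306 CPM in tag 2, so that tags 3 and 2 were close. All 10 molecules of that sum in tag 1 came from 1 cell. Klra5 had 505 CPM in tag 3 and 554 CPM in tag 4, and was at 0 in the 11 cells of tag 1 and at 181 CPM in tag 2.

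Klrc1 in NK cells had 4005 CPM (3520 to 4538) in tag 3 and 2354 CPM (1371 to 3769) in tag 4, and 2022 CPM (1105 to 3392) in tag 1 and 1449 CPM (991 to 2046) in tag 2. The interval of tag 3 did not overlap those of the no-anti-PD-1 tags, while that of tag 4 overlapped both. The log2 ratio of the pools was 0.87 (0.31 to 1.43), with no call.

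Klrg1 in NK cells had 765 CPM in tag 3 and 692 CPM in tag 4, and 433 CPM in tag 1 and 317 CPM in tag 2. It was the 1 of 7 measured members called higher in the anti-PD-1 pool in NK cells, a call that 5.03% of the 199 genes measured there received, with 8.54% called in either direction. The log2 ratio was 0.96 with a counting interval of -0.27 to 2.18, on 62 molecules in all. These were 47 in 18 cells of tag 3 and 5 in 2 cells of tag 4, and 3 in 2 cells of tag 1 and 7 in 1 cell of tag 2. Without tag 3 only 15 molecules were left, too few for a call. The call was lost without the cell with the most Klrg1 of each tag, where the ratio was 2.26 on 37 molecules. That setting took out the only Klrg1-positive NK cell of tag 2. The call was also lost without the 5% of cells with the most molecules, where the ratio was 0.49. Of the 7 measured members, 6 did not overlap between the pools, as was true of 23.6% of genes measured in NK cells. Klra21 was the one that did.

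A further 35 cells met the NK gate and the Lgals1-high gate at once. With these included, an alternative chosen after the data were seen, there were 135 NK cells, and the Ly49 sum had 6844 CPM in tag 3 and 5628 CPM in tag 4, against 581 CPM in tag 1 and 3614 CPM in tag 2. The Ly49 sum, Klra7, Klrg1 and Klra1 were then called higher in the anti-PD-1 pool, with log2 ratios of 1.57, 2.25, 2.56 and 2.00, in a wider class where 8.85% of 226 genes were called higher and 13.7% either way. Single cells weighed heavily here: 1 cell held 87.8% of the Klrg1 and 1 held 69.8% of the Klra7 of tag 4, and 1 cell held 46.8% of the Klrg1 of tag 3. Klrc1 was not called in the wider class, at a log2 ratio of 0.92.

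**Figure D3:**
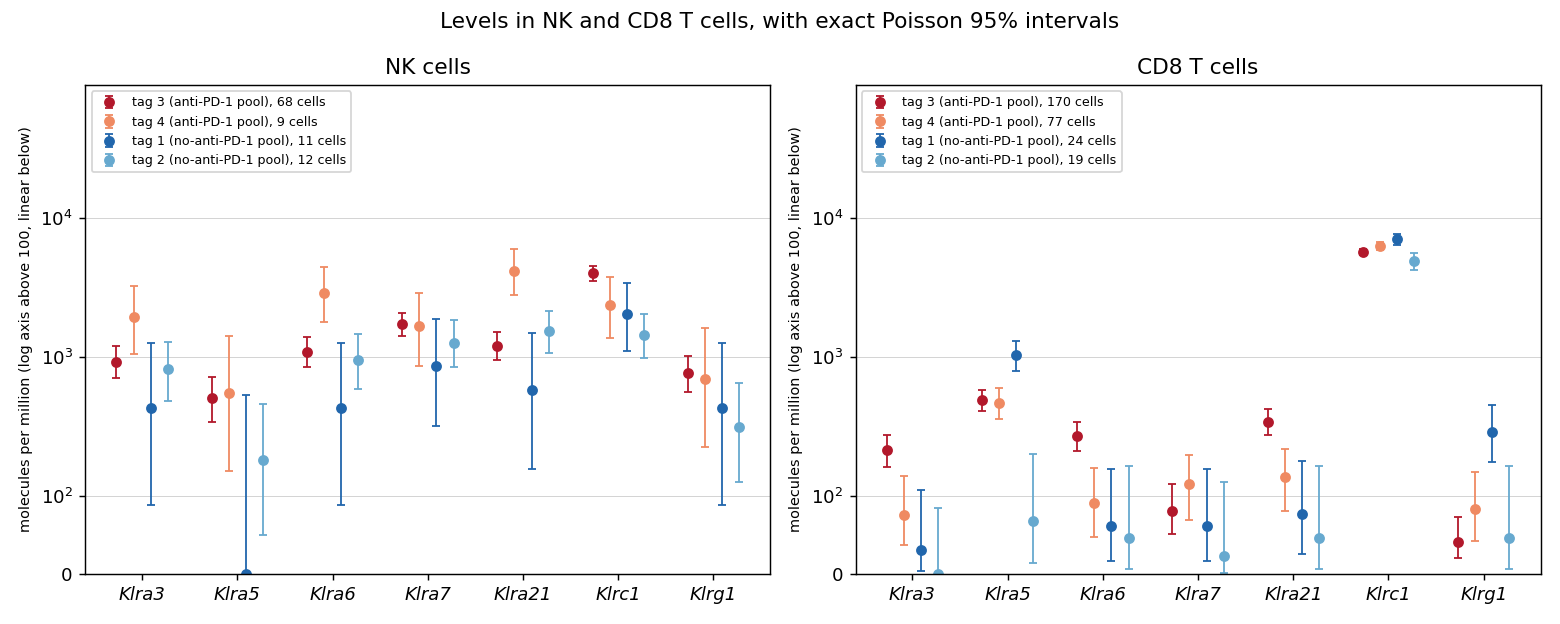
Levels of 7 genes in NK cells (left) and CD8 T cells (right) by tag, in CPM on an axis that is logarithmic above 100 and linear below, with exact Poisson 95% intervals. In NK cells the intervals of most genes overlap between pools, and in CD8 T cells Klrc1 lies at a like level in the 4 tags, with pool means of 5963 CPM with anti-PD-1 and 5957 CPM without it.

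Klrc1 was the member of CD8 T cells. It was detected in 81.8% of CD8 T cells in tag 3 (75.1 to 87.3%, exact Clopper-Pearson interval) and 87.0% in tag 4, and in 70.8% in tag 1 and 84.2% in tag 2. Its level was 5656 CPM in tag 3 and 6269.8 CPM in tag 4, against 7036 CPM in tag 1 and 4877 CPM in tag 2. The tags without anti-PD-1 were the highest and the lowest, and the log2 ratio of the pools was 0.00 (-0.13 to 0.13). For comparison, 2.25% of B cells, 1.61% of macrophages, 7.37% of dendritic cells and 0.52% of Lgals1-high cells had a Klrc1 molecule. The part of free RNA or doublets in these shares was not tested. Lgals1-high cells, of which 76.3 to 86.7% had an Epcam molecule in tags 2 to 4, were deeper than CD8 T cells. Their medians were 2587 to 3378.5 molecules, against 1118.5 to 2110 in CD8 T cells.

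Klrc1 was higher beside Pdcd1, the PD-1 gene, in some tags more than in others. CD8 T cells with a Pdcd1 molecule had 6035 CPM of Klrc1 in tag 3 and 6670 CPM in tag 4, and 8443 CPM in tag 1 and 4898 CPM in tag 2. CD8 T cells with no Pdcd1 molecule had 3799, 2847, 2939 and 4743 CPM in tags 3, 4, 1 and 2. The ratio was 1.59, 2.34, 2.87 and 1.03 in the same order, so tag 2, with 5 Pdcd1-negative cells, showed next to no difference. Pdcd1-positive cells were also deeper in each tag, for example 1305 against 703 molecules in tag 3, and the part of depth in the split was not tested.

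Of CD8 T cells, 25.5% also carried a Ly49 gene, and each of these carried Klrc1. The Ly49 sum was detected in 44 of 170 CD8 T cells in tag 3 and 20 of 77 in tag 4, and in 7 of 24 in tag 1 and 3 of 19 in tag 2. All 74 of these cells had a Klrc1 molecule, against 165 of the other 216 CD8 T cells (76.4%), and 93.2% of them had a Pdcd1 molecule, against 63.4%. The Ly49-positive cells were deeper, at a median of 1604 against 1048 molecules. With every cell thinned to 500 molecules, 48 of 264 CD8 T cells had a Ly49 molecule, and Klrc1 was in 48 of these 48 and in 75.0% of the rest, while Pdcd1 was in 85.4% and 61.6%. The Ly49-positive group was formed on Ly49 alone.

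The Ly49 genes of CD8 T cells were not those of NK cells in the same proportions. Klra5 was found in more CD8 T cells than Klra7 or the Klra3/6/21 sum, 41 of 290, and had 491 CPM in tag 3 and 466 CPM in tag 4, and 1027 CPM in tag 1 and 68.7 CPM in tag 2. Klra7 was in 24 and the Klra3/6/21 sum in 26 of the 290 cells, and Klra1 in 0, which allows a share of cells with a molecule of up to 1.03%, at a median depth of 1175.5 molecules. Among the 41 Klra5 cells, 7 also had Klra7 and 7 had Klra21, while Klra6 and Klra21 shared 23 of their 23 and 25 cells.

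The Klra3/6/21 sum was higher in both anti-PD-1 tags of CD8 T cells. It had 828 CPM (723 to 943) in tag 3 and 305 CPM (218 to 416) in tag 4, against 169 CPM (84.2 to 302) in tag 1 and 91.6 CPM in tag 2, from 4 molecules. The log2 ratio was 2.12 (1.36 to 2.89), called higher, and both values without anti-PD-1 came from 1 cell each. Klra21 was the 1 of 7 measured members called higher in CD8 T cells, at 344 CPM in tag 3 and 137 CPM in tag 4, against 76.6 CPM in tag 1 and 45.8 CPM in tag 2, where 4.53% of 287 genes were called higher and 9.41% either way. In shares of cells the sum was in 9.41% in tag 3 and 10.4% in tag 4, against 4.17% in tag 1 and 5.26% in tag 2, with intervals that overlapped. Klra3, Klra6 and Klra7 had log2 ratios of 3.24, 1.75 and 1.27 and Klra5 of -0.20, with no call.

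Klrg1 was rare in CD8 T cells, in 16 of 290 cells. It had 40.6 CPM in tag 3 and 84.0 CPM in tag 4, and 291 CPM in tag 1 and 45.8 CPM in tag 2. The log2 ratio of -1.44 (-2.33 to -0.54) rested on tag 1, where 3 cells held 19 molecules, and was 0.44 without that tag. Klrc1 was also detected in 14 of the 16 cells. The CD8 T gate differed between tags in other markers. C1qa, C1qb and Lyz2, markers of macrophages, summed to 7515 CPM in tag 3 and 8767 CPM in tag 4, and to 21967 CPM in tag 1 and 3641 CPM in tag 2. Tag 1 also had the deepest CD8 T cells, at a median of 2110 molecules. The part of this in the CD8 T values was not tested.

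In CD4 T cells Klrg1 was the gene of cells with Foxp3, the transcription factor of regulatory T cells. It was in 22 of 50 Foxp3-positive CD4 T cells in tag 3 and 16 of 31 in tag 4, and in 6 of 13 in tag 1 and 10 of 13 in tag 2. Of CD4 T cells with no Foxp3 molecule it was in 3 of 114, 3 of 34, 2 of 18 and 3 of 22 in tags 3, 4, 1 and 2. In Foxp3-positive cells its level was 2532 CPM in tag 3 and 1570.4 CPM in tag 4, and 1129.9 CPM in tag 1 and 3530.4 CPM in tag 2. In Foxp3-negative cells it was 55.5, 369, 269 and 380.2 CPM in the same order of tags, 4.20 to 45.6 times lower. The Poisson intervals of the Foxp3-positive and Foxp3-negative cells did not overlap in any tag. Foxp3-positive cells were deeper in each tag, for example 2184 against 734 molecules in tag 2, and the part of depth in the shares was not tested.

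Klrg1 over all CD4 T cells had 1035 CPM in tag 3 and 1119 CPM in tag 4, against 706 CPM in tag 1 and 2438 CPM in tag 2. Both anti-PD-1 tags lay between the others, and the log2 ratio was -0.55 (-0.81 to -0.29), with no call. The direction depended on 1 tag: the ratio was -1.18, called lower, without tag 1, and 0.61 without tag 2. The CD4 T gate also differed between tags in other markers. Macrophage markers (C1qa, C1qb and Lyz2) summed to 10348 CPM in tag 3 and 22371 CPM in tag 4, and to 42251 CPM in tag 1 and 22883 CPM in tag 2. The T-cell markers Cd3d, Cd3e, Cd3g and Trdc were at 13356 and 14569.5 CPM in tags 3 and 4, and at 5297 and 11120 CPM in tags 1 and 2. Tag 1, with the lowest Klrg1, thus had the most macrophage and the least T-cell signal, and the part of this in the Klrg1 and Klrc1 values of CD4 T cells was not tested.

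Klrc1 in CD4 T cells was on the other side of the Foxp3 split. In Foxp3-negative CD4 T cells it had 895 CPM in tag 3 and 1929 CPM in tag 4, against 0 in the 18 cells of tag 1 and 665 CPM in tag 2. In Foxp3-positive cells it was at 0 in tags 3, 1 and 2 and came from 1 cell with 18 molecules in tag 4. Over all CD4 T cells Klrc1 had 541 CPM in 12 cells in tag 3 and 917 CPM in 10 cells in tag 4, against 0 in tag 1, the tag with the most macrophage signal, and 231 CPM in 3 cells in tag 2. It was called higher with anti-PD-1, at a log2 ratio of 2.66 (1.87 to 3.45), the 1 of 2 measured members so called where 7.85% of 293 genes were called higher and 11.3% either way. The cytotoxic genes Gzma and Nkg7 moved the same way in these cells, with 814 and 341 CPM of Gzma against 44.1 and 16.5 CPM, and 3665 and 3304 CPM of Nkg7 against a mean of 770.3 CPM. Gzmb and Fasl did not, with log2 ratios of -0.15 and 0.01. Of 22 NK and cytotoxic genes measured in CD4 T cells, 6 were called higher and 0 lower. NK marker genes together, Gzma and Nkg7 among them, summed to 11186 and 12768 CPM in tags 3 and 4, against 2902 and 5206 CPM in tags 1 and 2. Cd8a and Cd8b1 summed to at most 49.4 CPM, but the gate allowed at most 1 Cd8 molecule per cell. That low sum is thus set by the gate and tells nothing of CD8 T cells. The part of other cytotoxic cells in the Klrc1 value was not tested. Ly49 genes were nearly absent, with 3 molecules in 2 of 295 CD4 T cells. Klra3, Klra6 and Klra21 were at 0, which allows a share of cells with a molecule of up to 1.02%, at a median depth of 778 molecules. These limits, set at 3 cells, concern detection at this depth and not expression.

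Klra17 was the neutrophil gene of the set. It was in 1050 of 1841 neutrophils in tag 3 and 196 of 349 in tag 4 (56.2%), and in 310 of 637 in tag 1 (48.7%) and 181 of 400 in tag 2 (45.2%). Thinned to 500 molecules per cell the shares were 28.2% and 24.6%, and 24.6% and 24.1%, so that at equal depth only tag 3 stood above the others. In CPM the levels were 683 (657 to 710) in tag 3 and 631 (576 to 689.8) in tag 4, against 617 (574 to 661) in tag 1 and 591 (538 to 647) in tag 2. The log2 ratio was 0.12 (0.02 to 0.23), with no call, where 18.1% of 277 genes were called either way, 4.69% higher, and the median gene stood at -0.28. The 4 tags did not overlap between pools, as was true of 64.6% of genes in neutrophils. Without S100a8 and S100a9 in the total it was 0.28.

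The other receptors were rarely found in neutrophils, and Klra17 was lower in every other gated class. Klrc1 was in 19 and the Ly49 sum in 8 of 3227 neutrophils. Klra17 had at most 41.7 CPM in Lgals1-high cells and 15.3 to 73.9 CPM in CD8 T cells, and was found in 4.76% and 6.21% of them and in 1 of 100 NK cells. Dendritic cells had 121 to 420 CPM by tag and B cells 0 to 125 CPM. Where Klra17 was found outside neutrophils, S100a8 and S100a9 were also higher in most classes. They made up a median of 5.81% of the molecules of Klra17-positive CD8 T cells against 0.457% of Klra17-negative ones, and 3.70% against 0.484% in Lgals1-high cells. In B cells the shares were close, at 0.753% against 0.691%. The part of free neutrophil RNA or doublets was not tested.

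Within neutrophils the level of Klra17 depended on the scale. Neutrophils were split within each tag into tertiles by the share of S100a8 and S100a9. From the lowest to the highest tertile Klra17 had 659, 748 and 651 CPM in tag 3 and 629, 738 and 564 CPM in tag 4, and 523, 657 and 641 CPM in tag 1 and 469, 694 and 589.6 CPM in tag 2. The middle tertile was the highest in each of the 4 tags. As CPM over the molecules other than S100a8 and S100a9, it had 854, 1237 and 1646 in tag 3, 799, 1216 and 1471 in tag 4, 660.4, 986 and 1398 in tag 1, and 593, 1041 and 1308 in tag 2. On that scale it increased with every tertile in every tag, with the highest tertile 1.84 to 2.21 times the lowest, against 0.896 to 1.26 times on the total scale. The S100 share that forms the tertiles is part of the total, so the 2 scales differ by construction.

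**Figure D4:**
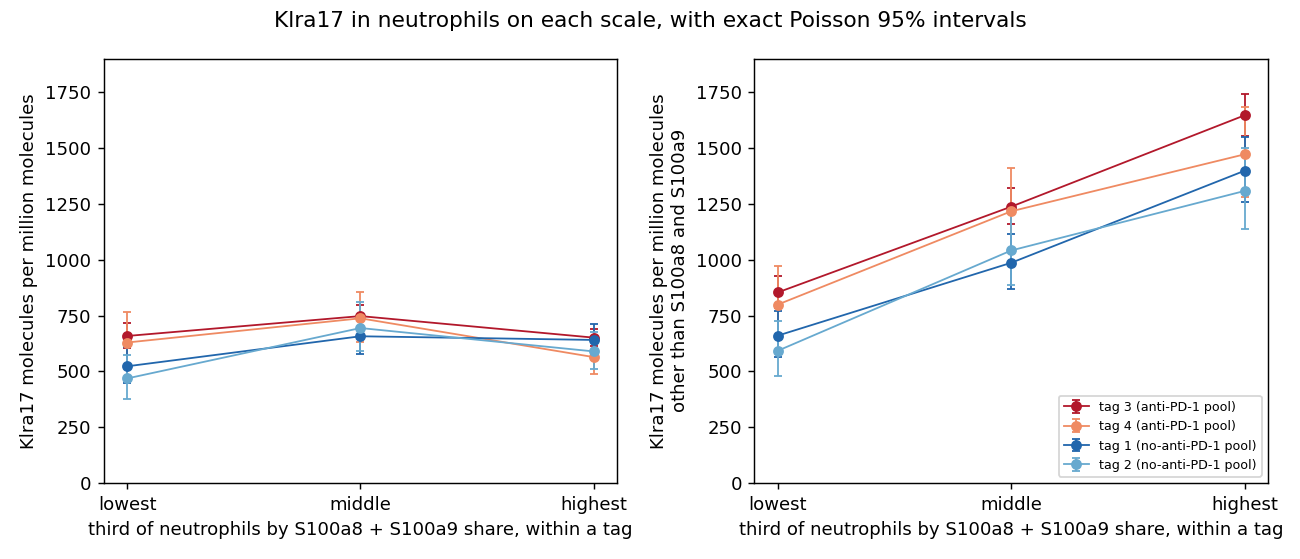
Klra17 in neutrophils by tertile of S100a8 plus S100a9 share within a tag, from lowest to highest, as CPM over all molecules (left) and over the molecules other than S100a8 and S100a9 (right), with exact Poisson 95% intervals. The left panel peaks in the middle tertile in each tag, and the right panel increases from 593 to 854 in the lowest tertile to 1308 to 1646 in the highest.

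Chil3, a gene of immature neutrophils, split Klra17 in the same scale-bound way. Neutrophils with a Chil3 molecule had 429 CPM of Klra17 in tag 3 and 531 CPM in tag 4, and 500.1 CPM in tag 1 and 481 CPM in tag 2. Neutrophils with none had 737, 660.2, 644 and 619.5 CPM in the same order, which gives ratios of 0.582 to 0.804. Without S100a8 and S100a9 in the total the ratios were 0.780 in tag 3, 0.987 in tag 1 and 0.977 in tag 2, and in tag 4 Chil3-positive cells had the higher value, at 1286 against 1152. Chil3-positive cells were deeper, at medians of 3035 to 4273.5 molecules against 1441 to 1592.

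Among dendritic cells, gated on Flt3 and MHC class II, Klra17 went with markers of plasmacytoid cells. Klra17 was in 14 of 95 dendritic cells, and 11 of these 14 had Ccr9, a chemokine receptor of plasmacytoid dendritic cells that only 13 of the 95 had. Siglech, a plasmacytoid marker counted in tags 2 to 4, gave the same split: Klra17 was in 10 of 16 cells with at least 2 Siglech molecules and in 3 of the other 70. The median S100a8 count was 5.5 and 7 molecules in these subsets over the 3 tags, but 118 and 14 in tag 2. Klra17 had 1573 CPM in the 16 Siglech-positive cells, from 29 molecules, 23 of them in tag 3. Neutrophils had 591 to 683 CPM, but S100a8, S100a9 and Cxcr2 made up 39.6 to 46.4% of their molecules. The values of the 2 cell types are thus not on a like scale, and no order is read from them. Dendritic cells with Klra17 had a median S100a8 plus S100a9 share of 1.49%, against 0.352% in those without it, and the part of neutrophil RNA in Klra17 here was not tested. Siglech and Ccr9 were chosen after the values were seen.

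The Klra3/6/21 sum was in 13 of 95 dendritic cells (13.7%, 7.49 to 22.3%), with 8 in tag 3 and 1 in tag 4, and 2 in tag 1 and 2 in tag 2. None of these 13 cells had a molecule of any of the 7 NK gate markers. This is in part set by the gates, because cells that also met the NK gate were left out. NK markers were also rare in the whole dendritic class, at 91 to 210 CPM by tag. The part of NK RNA or doublets in the sum was not tested. Of the 13 cells, 1 also had Klra17, too few cells to read an overlap from. Klra7, Klra5 and Klra1 were at 0 in all 95, which allows a share of cells with a molecule of up to 3.16%. Of the 86 molecules of the sum, 40 came from 1 cell of tag 4. The sum was also in 3 of 89 B cells and in 8 of 248 macrophages, and in 0 of 967 Lgals1-high cells.

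NK-type genes were also found in cells with the gamma-delta receptor chain gene Trdc. Cells with Cd3 and Trdc but little Cd4 or Cd8, a subset chosen after the values were seen, numbered 25 in tag 3 and 9 in tag 4, and 3 in tag 1 and 6 in tag 2. The Ly49 sum was in 10 of 25 and 3 of 9, and in 0 of 3 and 2 of 6. Klrc1 was in 15 of the 43 cells and Klrg1 in 1. Ungated cells with Cd3 molecules but little Cd4 and Cd8 held 74.1% of the ungated Klra3 and 60.8% of the ungated Klra7, in 14 and 11 cells. They had no S100 limit and also held 38.9% of the ungated Klra17, the neutrophil gene, in 587 cells, so they cannot all be taken for T cells. Cd3- and Cd8-positive cells outside the CD8 gate held 49.8% of the ungated Klra5 and 61.6% of the ungated Klrc1.

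Other genes of these receptor systems were counted in part. Of 27 further killer lectin, NK receptor and adaptor genes, 8 were on the panel in every tag. In NK cells 4 of them were measured and 0 called, with a median log2 ratio of 0.32 against -0.08 over all genes. Klrk1, the NKG2D gene, was in 52 of 100 NK cells at 879 and 1108 CPM in tags 3 and 4, and 1155 and 634 CPM in tags 1 and 2. In CD8 T cells 1 of 5 measured was called higher (Tigit, an inhibitory receptor gene, log2 ratio 0.80), where 4.53% of all genes were, and in CD4 T cells 1 of 3 (Klrk1, 2.54), where 7.85% were. In neutrophils 1 of 3 was called lower (Tigit, -1.02, on 58 molecules), where 13.4% of all genes were. Of 10 ligand genes only H2-K1, a classical MHC class I gene, was counted in every tag, and it was not called in NK, CD8 T, CD4 T cells or neutrophils.

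Of 29 NK and cytotoxic genes, 26 were counted in every tag. In NK cells 3 of 20 measured were called higher with anti-PD-1 and 0 lower, among them the granule genes Gzmb (log2 ratio 1.86) and Prf1 (2.17), with a median of 0.16 against -0.08 over all genes. Prf1, itself an NK gate marker, rested on 32 molecules, with a counting interval of -0.24 to 4.58. It had 440 and 415 CPM in tags 3 and 4, and 144 and 45.3 CPM in tags 1 and 2. In CD8 T cells 3 of 24 were called higher, Prf1, Ccl5 and Itgae, and 1 lower, Xcl1, with a median of 0.15 against -0.07. In CD4 T cells 6 of 22 were called higher and 0 lower, Gzma, Nkg7, Xcl1, Ccl5, Tbx21 and Cxcr6, with a median of 0.51 against 0.09. In neutrophils 2 of 15 were called higher and 2 lower. Over all genes the share called higher was 5.03% in NK cells, 4.53% in CD8 T cells, 7.85% in CD4 T cells and 4.69% in neutrophils. The share called lower was 3.52%, 4.88%, 3.41% and 13.4% in the same classes.

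The genes whose profile was most like each of 4 members were taken by Pearson's r of log2(CPM + 10) over 24 class and tag profiles of 6 classes. NK and dendritic cells are not among those classes, because each had 9 cells in 1 tag and the minimum was 10. Klra17 was most like S100a8 (0.875), S100a9 (0.854), Tnfsf14 (0.852), Oas2 (0.849) and Cxcr2 (0.831). Klrc1 was most like Gzmk (0.943), Pdcd1 (0.941), Ifng (0.938), Tbx21 (0.938) and Cxcr6 (0.932). Klrg1 was most like Tnfrsf4 (0.958), Foxp3 (0.945), Lta (0.932), Cd5 (0.924) and Ikzf2 (0.914). Klra7 was most like Klrc3 (0.960), Klra5 (0.960), Cd8a (0.946), Cd8b1 (0.938) and Gzmk (0.909), over profiles in which CD8 T cells are its highest class. S100a8, S100a9 and Cxcr2 were among the genes of the neutrophil gate, and Cd8a and Cd8b1 among those of the CD8 T gate. Likeness to these genes is thus in part set by the gates. Profiles of 1 tag share a library and depth, and these values are a description.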

How the data were processed

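The authors deposited molecule counts per cell and panel target. Per the file headers these came from version 1.12.1 of BD's Rhapsody Targeted Analysis Pipeline, and the submitters' processing notes also list Seurat 3.2.0. Counts are molecules after error correction of molecular identifiers. Tag 1 was counted against a reference with other target names and fewer genes, so only the 396 genes counted in every tag entered totals, gates and ratios. Genes were matched by name, and it is not stated whether the Klra targets of tag 1 are those of the other tags. A panel count depends on its primer, so levels are not compared between genes. Cells were gated on lineage markers with at least 3 NK markers, or at least 2 molecules of Cd3 with Cd8 or Cd4, and under 15% S100a8 plus S100a9. Molecules were summed per tag and class as CPM with exact Poisson intervals, and shares have exact Clopper-Pearson intervals. The calling rule was tested on simulated data. With 1 sample per group no p-value was computed. The members, gene lists and gates were chosen with earlier results of these data known. Named are all 8 members, the listed pathway genes and the 5 genes most like 4 of the members. Python 3.11.15, numpy 2.4.6, scipy 1.17.1 and pandas 2.3.3 were used.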

Additional observations from a re-analysis of the deposited data

How the results depend on the processing

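Log2 ratios of the anti-PD-1 pool over the no-anti-PD-1 pool were recomputed with looser and stricter gates, S100 limits of 5% and 25%, a minimum of 200 molecules per cell, other scalings, without the deepest 5% of cells, without the top cell of each tag and without each tag. The Ly49 sum in NK cells (1.24) was positive in 14 of 14 settings, at 0.84 without the deepest cells and 1.87 without the top cells, and at 0.81, 1.85, 1.67 and 0.63 without tags 1, 2, 3 and 4. It was called higher without tag 2 or tag 3. Klrg1 in NK cells (0.96) was 2.26 without the top cells and 2.56 with the cells that also met the Lgals1-high gate. Its call was lost with an S100 limit of 25%, without the deepest cells (0.49) and without the top cells. Without tag 3 it had 15 molecules, too few for a call. Klrc1 in NK cells (0.87) ran from 0.44 to 1.4 and was called higher with looser gates and without tag 1 or tag 4. In CD8 T cells Klrc1 (0.00) was 0.21 without the top cells, 0.29 without tag 1 and -0.24 without tag 2, and Klrg1 (-1.44) was 0.44 without tag 1. Klrg1 in CD4 T cells (-0.55) was -1.18 without tag 1 and 0.61 without tag 2. Klra17 in neutrophils (0.12) was 0.40 with TMM-type scaling and 0.28 without S100a8 and S100a9. The causes were not tested.

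Thinned to 1000 in place of 500 molecules, Klrc1 was in 89.5% in place of 75.1% of CD8 T cells, Klrg1 in 34.2% in place of 22.8% of CD4 T cells and Klra17 in 39.5% in place of 25.4% of neutrophils, as means over the tags. Tag 1 kept no NK cell at that depth, so no such value could be given for NK cells. No paired analysis was possible because each pool is 1 sample and no test was made. Depth limits the shares, and 9 to 12 NK cells in tags 4, 1 and 2 limit every NK value.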
